A study of Mus musculus with 9 samples.

Results

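The PIM kinases and the D-type cyclins with their partner kinases form a set of 8 genes, Pim1, Pim2, Pim3, Ccnd1, Ccnd2, Ccnd3, Cdk4 and Cdk6. They were chosen by name as members of these 3 gene families, out of 50686 genes in the count tables. The choice was made with earlier results of these data known. All 8 were among the 13852 genes that passed the filter on low counts. Their mRNA was measured by RNA-seq in BCR/ABLp185+ cell lines, which are C57BL/6N mouse bone marrow cells transformed with the p185 form of the BCR/ABL oncogene. Every line carries this oncogene, the wt controls included. The paper reports enhanced BCR/ABL expression in Stat5a-/- and Stat5b-/- lines, and the part of that level in these results was not tested. The 3 groups are wt, Stat5a-/- (no functional Stat5a gene) and Stat5b-/- (no functional Stat5b gene). Each group is 1 cell line measured in 3 technical replicates, so that 9 libraries were available and every p-value compares 1 cell line with 1 other rather than independent lines of a genotype.

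STAT5A and STAT5B are closely related transcription factors that BCR/ABL keeps phosphorylated. Their described target genes include Pim1 and the D-type cyclin genes. PIM kinases are serine/threonine kinases that are active once they are made, so that their amount is set mainly by transcription and protein turnover. They promote survival and growth of blood cells. D-type cyclins bind CDK4 or CDK6, and the complexes phosphorylate the retinoblastoma protein, which releases E2F factors and lets cells enter S phase. CDK6 is the partner best known from BCR/ABL-driven lymphoid leukemia.

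The libraries held between 11948136 and 19016396 counted reads, of which the 8 genes took between 0.377% and 0.572%. Values are normalized CPM, which are read counts as CPM after TMM scaling of the libraries to a common total. Stat5a was lower in every Stat5a-/- library (11.8 to 13.6 normalized CPM) than in wt (36.0 to 48.2). Stat5b was lower in Stat5b-/- (58.5 to 72.3) than in wt (103 to 107), with many reads left at the locus. Stat5a was higher in Stat5b-/- than in wt (72.2 to 91.7, edgeR adjusted p = 5.95e-05), and Stat5b was higher in Stat5a-/- (124 to 156, edgeR adjusted p = 0.00942). Of 12 B-lineage marker genes the summed level was 5665 to 5832 normalized CPM in wt, 7287 to 7827 in Stat5a-/- and 6925 to 7596 in Stat5b-/-. Past the adjusted p, Stat5b-/- had 6 of the 12 above wt and 4 below it (24.2% and 22.0% of all genes), and Stat5a-/- had 6 above and 3 below (19.8% and 16.3%). The recombinase genes Rag1 and Rag2 were close to absent in the knockout lines, with 1002 to 1328 and 477 to 744 reads in wt, 1 to 3 and 0 to 2 in Stat5a-/-, and 7 to 11 and 6 to 16 in Stat5b-/-. Il7r, the IL-7 receptor gene, averaged 374 normalized CPM in wt, 174 in Stat5a-/- and 278 in Stat5b-/-. T-cell marker genes were also present. Their summed level over 16 genes was 816 to 1131 normalized CPM in wt, 1222 to 1465 in Stat5a-/- and 1781 to 2587 in Stat5b-/-, and none of the 16 was at 0. All 16 passed both limits upward in Stat5b-/- against wt (10.6% of all genes), 7 of 16 passed the adjusted p upward in Stat5a-/- against wt (19.8%), and 15 of 16 did so in Stat5b-/- against Stat5a-/- (16.4%). Other markers were far lower. The sum of 13 myeloid genes was 17.7 to 19.1 in wt, 14.2 to 16.1 in Stat5a-/- and 20.4 to 23.2 in Stat5b-/-, with 3 to 5 of the 13 at 0 in each library. Of the 3 myeloid genes tested, Lyz2 and Csf1r passed both limits upward in Stat5b-/- against wt (10.6% of all genes). That of 10 erythroid and megakaryocytic genes was 12.1 to 14.4, 12.3 to 15.0 and 3.15 to 4.11 in the same order, and both of the 2 tested passed both limits downward in Stat5b-/- against wt (8.44%). For 6 NK-cell genes it was 29.4 to 44.4, 30.8 to 39.4 and 39.7 to 71.4, and of the 5 tested 4 passed both limits upward (10.6% of all genes) and 1 downward (8.44%) in Stat5b-/- against wt. The part of these markers in the results that follow was not tested.

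Genes were tested with edgeR's quasi-likelihood test, and p-values were adjusted by the Benjamini-Hochberg method over all genes tested. A gene passed the test at an adjusted p under 0.05, and it passed both limits where its change was also larger than 2-fold. In Stat5b-/- against wt, 7 of the 8 genes passed the test, against 46.2% of all genes tested. Of these 6 were lower (22.0% of all genes) and 1, Ccnd3, was higher (24.2%). Past both limits were 2 of the 8, Ccnd1 and Pim3, both lower (8.44% of all genes lower, 10.6% higher, 19.1% either way). In Stat5a-/- against wt, 5 of the 8 passed the test (36.0% of all genes). Pim1 and Ccnd3 were higher (19.8%), and Ccnd1, Cdk4 and Cdk6 were lower (16.3%). Here 2 of the 8 passed both limits (14.2%), Pim1 upward (7.75%) and Ccnd1 downward (6.49%). In Stat5b-/- against Stat5a-/-, 5 of the 8 passed the test (33.9%). Pim1, Pim3, Ccnd1 and Ccnd2 were lower (17.5%), Cdk6 was higher (16.4%), and Pim1 alone of the 8 passed both limits, downward (6.60% of all genes lower, 4.81% higher, 11.4% either way). The libraries of the lines did not overlap for 1 gene that was higher and 6 that were lower in Stat5b-/- than in wt (27.4% and 26.8% of all genes). For Stat5a-/- and wt these were 2 and 5 (25.5% and 23.7%), and for the knockout lines 2 and 4 (22.3% and 22.5%). The 3 comparisons share libraries, so that they are not independent of each other. The median log2 fold change of the 8 genes was -0.57 for Stat5b-/- and -0.29 for Stat5a-/-, each against wt, and -0.40 between the knockout lines, while the median of all genes tested was 0.02, 0.01 and 0.02.

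**Figure D1:**
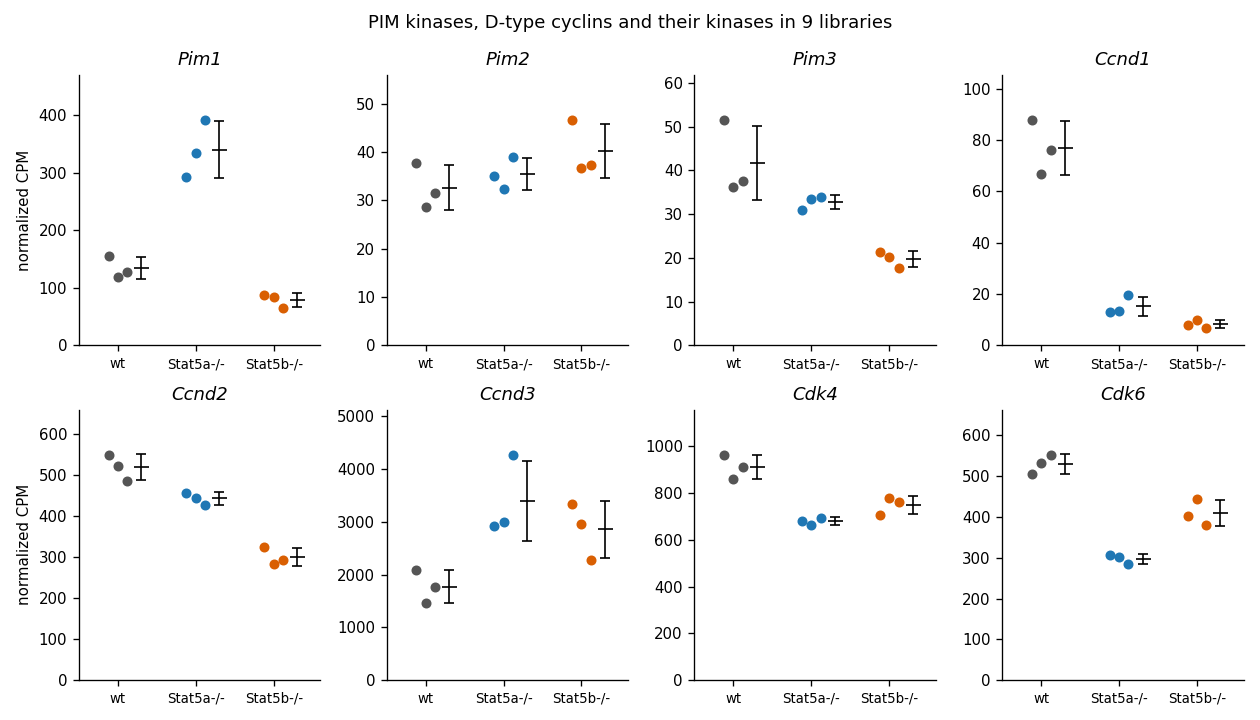
Level of each of the 8 genes in the 9 libraries, as normalized CPM on linear axes that start at 0 and differ between genes (points, replicates 1 to 3 from left to right; bars, mean ± SD). Ccnd1 is far lower in every knockout library than in wt, and Pim1 lies above wt in every Stat5a-/- library and below wt in every Stat5b-/- library.

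Pim1, Pim2 and Pim3 encode the 3 PIM kinases, which share substrates such as BAD and 4E-BP1. Pim1 (ENSMUSG00000024014.7, chromosome 17 from 29490812 to 29496111 of GRCm38) had 156, 119 and 128 normalized CPM in the wt libraries, 293, 334 and 392 in Stat5a-/- and 87.6, 84.1 and 64.8 in Stat5b-/-. The 3 lines did not overlap, and they stood in the order Stat5b-/-, wt, Stat5a-/-. Pim1 was 2.53-fold higher in Stat5a-/- than in wt (log2 fold change 1.34 ± 0.15 SE, edgeR adjusted p = 9.42e-06). It was 1.70-fold lower in Stat5b-/- than in wt (-0.77 ± 0.15, edgeR adjusted p = 9.12e-04). The direct comparison of the knockout lines gave a 4.31-fold lower level in Stat5b-/- (-2.11 ± 0.15, edgeR adjusted p = 2.85e-07). Pim1 thus moved in opposite directions from wt in the knockout lines, and the direct comparison tests that difference.

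Pim3 (ENSMUSG00000035828.10, chromosome 15 from 88862186 to 88865718) had 51.5, 36.2 and 37.5 normalized CPM in wt, 31.0, 33.4 and 34.0 in Stat5a-/- and 21.3, 20.3 and 17.8 in Stat5b-/-. All Stat5b-/- libraries lay below all others, and all Stat5a-/- libraries lay below wt, but close to it. Pim3 was 2.10-fold lower in Stat5b-/- than in wt (-1.07 ± 0.14, edgeR adjusted p = 4.67e-05) and 1.65-fold lower than in Stat5a-/- (-0.73 ± 0.15, edgeR adjusted p = 0.00191). Stat5a-/- against wt missed the threshold (-0.35, 95% interval -0.65 to -0.04, edgeR adjusted p = 0.0708), and leaving out single libraries moved it from -0.17 without wt replicate 1 (edgeR adjusted p = 0.317) to -0.44 without wt replicate 2 (edgeR adjusted p = 0.0407). In Stat5b-/- against wt, the log2 fold change without single libraries reached from -0.90 to -1.17. Without wt replicate 1 it was -0.90 and without Stat5b-/- replicate 3 it was -0.998, both short of 2-fold with the adjusted p still under 0.05. With an offset for the GC content of genes it was -0.96, also short of 2-fold, and a test against a 2-fold change (glmTreat) gave an adjusted p of 0.77. The same offset gave -0.46 in Stat5a-/- against wt, which passed (edgeR adjusted p = 0.00204).

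Pim2 (ENSMUSG00000031155.15, chromosome X from 7878262 to 7883432) had 37.7, 28.7 and 31.5 normalized CPM in wt, 35.1, 32.4 and 38.9 in Stat5a-/- and 46.6, 36.6 and 37.4 in Stat5b-/-. Its libraries overlapped between all 3 lines. The log2 fold change was 0.30 in Stat5b-/- (95% interval 0.01 to 0.60, edgeR adjusted p = 0.0844) and 0.12 in Stat5a-/- (-0.18 to 0.41, edgeR adjusted p = 0.533), and between the knockout lines it was 0.18 (-0.11 to 0.48, edgeR adjusted p = 0.324). Leaving out single libraries moved the first of these from 0.16 without Stat5b-/- replicate 1 (edgeR adjusted p = 0.395) to 0.42 without wt replicate 1 (edgeR adjusted p = 0.0336). With an offset for the GC content of genes Pim2 passed in Stat5b-/- against wt (0.28, edgeR adjusted p = 0.0208) and against Stat5a-/- (0.30, edgeR adjusted p = 0.0218).

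Compared per kilobase of exon, Pim1 was the most abundant of the PIM transcripts in each line, with means of 50.9 normalized CPM per kb in wt, 129 in Stat5a-/- and 29.9 in Stat5b-/-. Summed over all 3, PIM mRNA was 79.8 ± 12.5 per kb (SD, n = 3) in wt libraries, against 155 ± 20.2 for Stat5a-/- and 52.5 ± 6.76 for Stat5b-/-. Pim1 made up 63.8% of this sum in wt, 83.0% in Stat5a-/- and 56.9% in Stat5b-/-. Pim2, whose own level overlapped between the lines, made up 14.7%, 8.23% and 27.5% in the same order, and Pim3 21.5%, 8.80% and 15.6%.

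**Figure D2:**
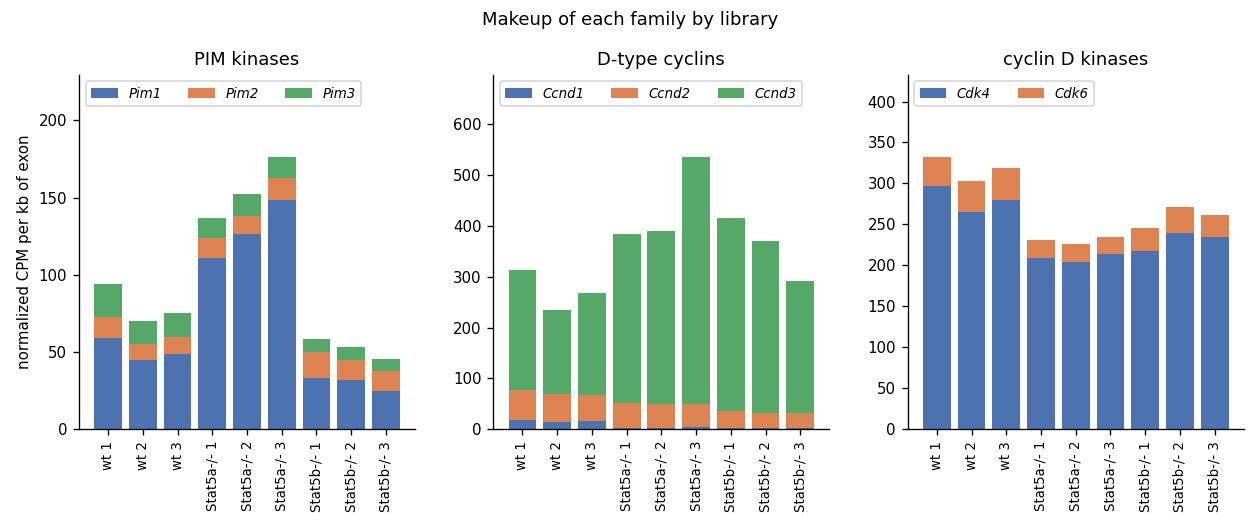
Stacked levels of the PIM kinases, D-type cyclins and cyclin D kinases in each library, in normalized CPM per kb of exon on axes that start at 0. The Pim1 segment is tallest in the Stat5a-/- libraries, and Ccnd1 makes up 6.00% of the cyclin bar in wt on average, against 0.738% and 0.496% in Stat5a-/- and Stat5b-/-.

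Ccnd1, Ccnd2 and Ccnd3 encode the D-type cyclins, and they differed from each other in direction. Ccnd1 (ENSMUSG00000070348.5, chromosome 7 from 144929931 to 144939925) had 87.8, 66.9 and 76.2 normalized CPM in wt, 12.8, 13.5 and 19.5 in Stat5a-/- and 7.95, 10.1 and 6.93 in Stat5b-/-. The 3 lines did not overlap, and wt stood far above both knockout lines. In counts this was 1320 to 1384 reads in wt, 166 to 216 in Stat5a-/- and 91 to 147 in Stat5b-/-. Ccnd1 was 9.23-fold lower in Stat5b-/- (-3.21 ± 0.19, edgeR adjusted p = 1.92e-08) and 5.06-fold lower in Stat5a-/- (-2.34 ± 0.18, edgeR adjusted p = 2.86e-07) than in wt. In bulk RNA, a smaller number of cells that express a gene and less RNA per cell cannot be told apart. Stat5b-/- lay 1.82-fold below Stat5a-/- (-0.87 ± 0.19, edgeR adjusted p = 0.00377), and leaving out single libraries moved this difference from -0.65 without Stat5a-/- replicate 3 to -1.03 without Stat5b-/- replicate 2.

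Ccnd2 (ENSMUSG00000000184.12, chromosome 6 from 127125162 to 127152193) had 550.4, 523 and 486 normalized CPM in wt, 457, 446 and 428 in Stat5a-/- and 326, 283 and 294 in Stat5b-/-. Stat5b-/- libraries were the lowest and did not overlap with any other. Ccnd2 was 1.73-fold lower in Stat5b-/- than in wt (-0.79 ± 0.10, edgeR adjusted p = 2.03e-05) and 1.48-fold lower than in Stat5a-/- (-0.56 ± 0.10, edgeR adjusted p = 6.03e-04). In Stat5a-/- against wt the libraries did not overlap either, but the difference missed the threshold (-0.23, 95% interval -0.44 to -0.02, edgeR adjusted p = 0.0793). Without single libraries it reached from -0.19 (without wt replicate 1, edgeR adjusted p = 0.210) to -0.28 (without wt replicate 3), and it passed without Stat5b-/- replicate 1 (-0.25, edgeR adjusted p = 0.0409). With DESeq2 in place of edgeR it passed on all libraries (-0.25, DESeq2 adjusted p = 0.0371).

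Ccnd3 (ENSMUSG00000034165.16, chromosome 17 from 47505051 to 47599691) had 2079, 1453 and 1762 normalized CPM in wt, 2919, 2986 and 4270 in Stat5a-/- and 3335, 2960 and 2269 in Stat5b-/-. Every knockout library was above every wt library, and the knockout lines overlapped. Ccnd3 was 1.92-fold higher in Stat5a-/- (0.94 ± 0.19, edgeR adjusted p = 0.00133) and 1.62-fold higher in Stat5b-/- (0.69 ± 0.19, edgeR adjusted p = 0.00789). The difference between the knockout lines missed the threshold (-0.25, 95% interval -0.65 to 0.15, edgeR adjusted p = 0.322), and it ranged from -0.04 without Stat5a-/- replicate 3 to -0.38 without Stat5b-/- replicate 1. Leaving out wt replicate 1, Stat5a-/- replicate 1 or Stat5a-/- replicate 2 gave log2 fold changes of 1.08, 1.02 and 1.02 in Stat5a-/- against wt, just past 2-fold. Without Stat5a-/- replicate 3, the highest library, it was 0.71, and without wt replicate 2 it was 0.82.

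Per kilobase of exon, the summed D-type cyclin level was 273 ± 39.5 normalized CPM in wt, 437 ± 86.1 in Stat5a-/- and 359 ± 63.1 in Stat5b-/-. Ccnd3 was the largest part, with 73.5% in wt, 88.2% in Stat5a-/- and 90.5% in Stat5b-/-, and its range over libraries, 70.4% to 75.4% in wt, did not meet the ranges of 86.6% to 90.8% and 88.8% to 91.3% in the knockout lines. Ccnd2 fell in share from 20.5% in wt to 11.1% and 9.06%.

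Cdk4 and Cdk6 encode the catalytic partners of these cyclins. Cdk4 (ENSMUSG00000006728.12, chromosome 10 from 127063534 to 127067920) had 964, 861 and 909 normalized CPM in wt, 681, 662 and 695 in Stat5a-/- and 705, 779.8 and 762 in Stat5b-/-. Both knockout lines lay below wt without overlap. The log2 fold change was -0.42 ± 0.09 in Stat5a-/- (edgeR adjusted p = 0.00290) and -0.28 ± 0.09 in Stat5b-/- (edgeR adjusted p = 0.0242). In Stat5b-/- the size of the difference held without single libraries (-0.24 to -0.33), but its adjusted p rose past the threshold in 3 cases. It was 0.0832 without wt replicate 1 (-0.24), 0.0676 without wt replicate 3 (-0.29) and 0.0506 without Stat5b-/- replicate 1 (-0.27). With all libraries and a replicate block in the fit, Cdk4 in Stat5b-/- against wt also missed the threshold (-0.28, edgeR adjusted p = 0.0692). The knockout lines did not overlap, but their difference missed the threshold (0.14, 95% interval -0.06 to 0.34, edgeR adjusted p = 0.267). It passed with an offset for the GC content of genes (0.23, edgeR adjusted p = 0.0329).

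Cdk6 (ENSMUSG00000040274.11, chromosome 5 from 3341485 to 3531008) had 506, 532 and 553 normalized CPM in wt, 307, 302 and 284 in Stat5a-/- and 403, 444 and 381 in Stat5b-/-. The order was wt, Stat5b-/-, Stat5a-/-, with no overlap. Cdk6 was 1.78-fold lower in Stat5a-/- than in wt (-0.83 ± 0.10, edgeR adjusted p = 1.38e-05) and lower in Stat5b-/- as well (-0.37 ± 0.10, edgeR adjusted p = 0.00585). It was 1.37-fold higher in Stat5b-/- than in Stat5a-/- (0.46 ± 0.10, edgeR adjusted p = 0.00249).

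Per kilobase, Cdk4 made up 88.1% of the summed kinase level in wt, 90.8% in Stat5a-/- and 88.7% in Stat5b-/-. Together both kinases had a level of 318 ± 14.9 normalized CPM per kb in wt, 230 ± 4.47 in Stat5a-/- and 259.8 ± 13.1 in Stat5b-/-. Summed cyclins divided by summed kinases gave 0.854 in wt (range 0.777 to 0.944), 1.89 in Stat5a-/- (1.66 to 2.29) and 1.39 in Stat5b-/- (1.11 to 1.69). These ratios are of mRNA per length of all annotated exons, so their size, above or below 1, depends on that length. Protein was not measured here.

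**Figure D3:**
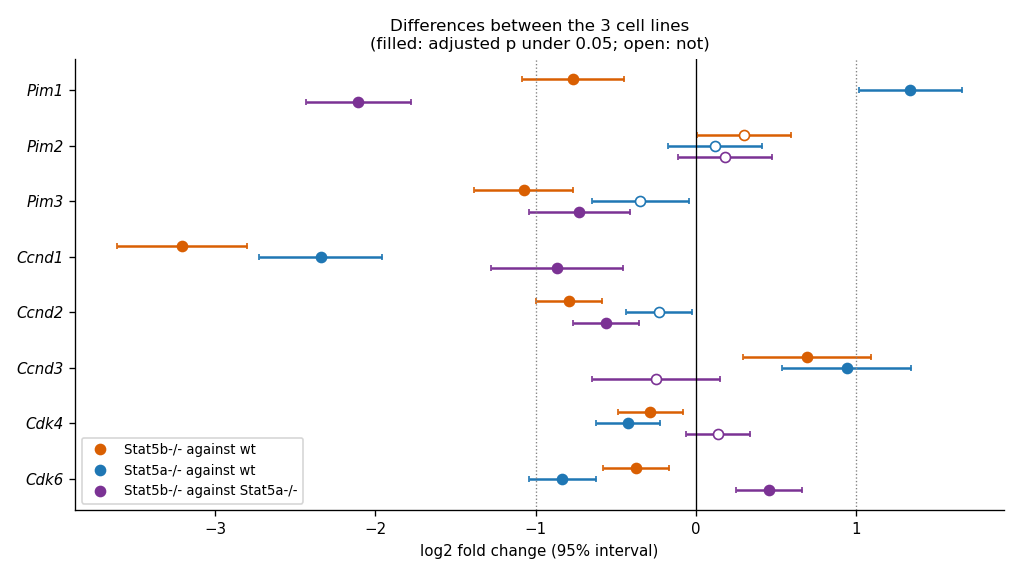
Log2 fold changes of the 8 genes in the 3 comparisons, with 95% intervals (filled points, adjusted p under 0.05; dotted lines, 2-fold). Ccnd1 lies furthest below 0 in both knockout lines, Pim1 is on opposite sides of 0 in the knockout lines against wt, and Ccnd3 lies above 0 in both.

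The promoter windows of 6 of the 8 genes were searched for CACGTG, the E-box motif, and for the STAT5-type motif TTCNNNGAA. Ccnd1 and Ccnd2 had no window. That of Cdk4 is shown because it held the most matches to CACGTG. In the 250 bases before the RefSeq start (GRCm38.p6, plus strand, chr10:127063285-127063534) it held 4 matches to CACGTG, shown in capitals, which begin 172, 118, 98 and 11 bases before the start. A window with at least 4 matches was found for 7 of 32851 RefSeq promoter windows (0.0213%), and a window with at least 1 for 6.02%. Cdk6 held 1 match, shown with the bases around it (chr5:3343661-3343690, plus strand). Its window begins at 3343643, which is inside the gene as counted, whose first exon base is 3341485.
Cdk4: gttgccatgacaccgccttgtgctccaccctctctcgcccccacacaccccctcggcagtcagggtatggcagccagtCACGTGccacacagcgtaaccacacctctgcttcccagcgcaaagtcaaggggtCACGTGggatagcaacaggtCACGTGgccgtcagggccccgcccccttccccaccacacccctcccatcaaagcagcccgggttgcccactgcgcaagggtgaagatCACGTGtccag
Cdk6: gttctgcggcccCACGTGggtgaacccccg
The second start of Pim1 held 1 match as well, and the windows of Ccnd3, Pim2, Pim3 and the first Pim1 start held none. The motif TTCNNNGAA matched none of the 8 windows of these 6 genes, against 7.02% of all windows. Both motifs read the same on both strands. A match is a description of letters, binding was not measured, and the absence of one covers only these windows.

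Pim1 and Ccnd3 lie on chromosome 17, whose genes as a whole moved between the lines. In Stat5a-/- against wt the 676 tested genes of this chromosome had a median log2 fold change of 0.53, with 0.66 for the 52 genes within 2 Mb of Pim1 and 0.44 for the 64 genes around Ccnd3. Relative to the chromosome median, Pim1 was 0.81 higher and Ccnd3 0.41 higher. In Stat5b-/- against wt the chromosome 17 median was 0.14, and Pim1 had a difference of -0.90 from it on the log2 scale. Between the knockout lines the chromosome median was -0.42, from which Pim1 differed by -1.69 and Ccnd3 by 0.17. The log2 fold change of Ccnd3 in that comparison, -0.25, was thus above the chromosome median, and above the -0.62 of the genes within 2 Mb. For Ccnd2 the 42 genes within 2 Mb had a median of 0.35 in Stat5b-/- against wt, so that the fall of Ccnd2 went against its neighbours, and the 19 genes around Ccnd1 likewise had a median of 0.35. The part of a change over the whole chromosome in the values of Pim1 and Ccnd3 was not tested.

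**Figure D4:**
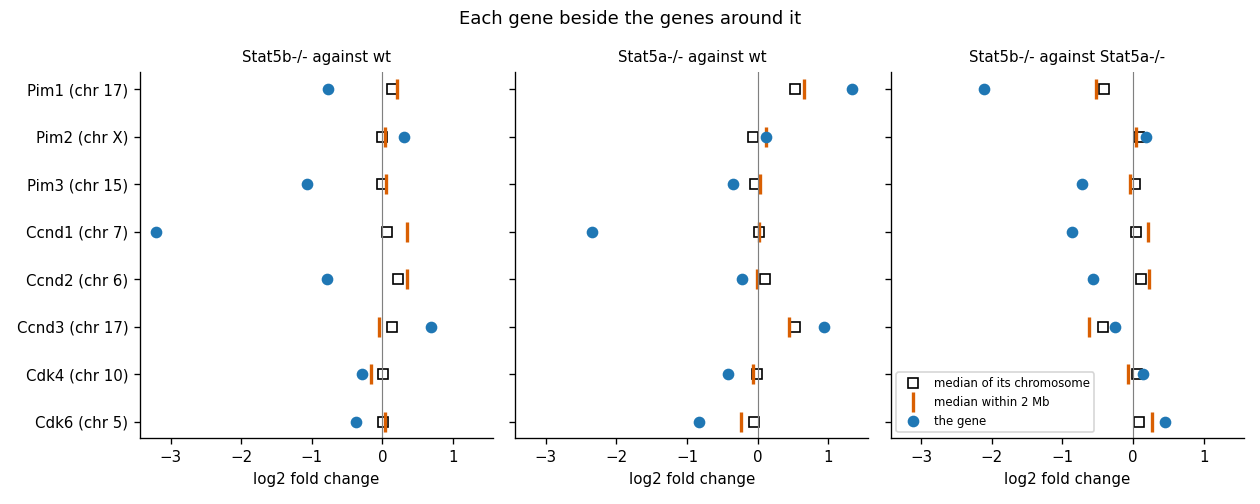
Log2 fold change of each gene (circle) beside the median of tested genes within 2 Mb (bar) and on its chromosome (square) in the 3 comparisons. Pim1 and Ccnd3 sit above 0 together with their chromosome 17 neighbours in Stat5a-/- against wt, while Ccnd1 lies far from its neighbours in both knockout lines against wt.

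The genes whose levels over the 9 libraries followed a member most closely are a description, since the 9 libraries come from 3 lines. Among 9753 genes compared by Pearson's r of log2 normalized CPM, Pim1 was closest to St3gal2 (0.995), Slc29a1 (0.992) and Csf2rb2 (0.992). Ccnd1 was closest to Prep (0.997), Tlcd1 (0.996) and Ak4 (0.996), and Pim3 to Klhl2 (0.988), Phb2 (0.986) and Pkm (0.986).

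Lists of pathway genes were examined beside the 8 genes, and each count is read against the share of all genes tested that passed the test in that direction. These shares were 24.2% higher and 22.0% lower in Stat5b-/-, and 19.8% higher and 16.3% lower in Stat5a-/-, each against wt. The lists were chosen with earlier results of these data known. Their counts are therefore not independent of the data and are given as a description.

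Of 12 other described STAT5 target genes, 5 (41.7%, against 24.2% of all genes) rose and 3 (25%, against 22.0%) fell in Stat5b-/-. In Stat5a-/- 5 rose (41.7%, against 19.8%) and 3 fell (25%, against 16.3%). Between the knockout lines, 4 were higher (33.3%, against 16.4%) and 7 lower (58.3%, against 17.5%) in Stat5b-/-, with a median log2 fold change of -0.80 against 0.02 for all genes. Cish and Socs1, feedback inhibitors of cytokine signaling, were higher in both knockout lines. Cish had 14.8 normalized CPM in wt, 99.3 in Stat5a-/- (2.75 on the log2 scale, edgeR adjusted p = 6.54e-07) and 29.5 in Stat5b-/- (edgeR adjusted p = 0.00266), and was thus above wt in Stat5b-/-, where Pim1 was below it. Socs1 was higher by 1.83 in Stat5a-/- (edgeR adjusted p = 1.04e-05) and by 0.76 in Stat5b-/- (edgeR adjusted p = 0.00795). Il2ra, an IL-2 receptor chain, was higher in Stat5a-/- (1.81, edgeR adjusted p = 1.04e-07), gave -0.12 in Stat5b-/- (edgeR adjusted p = 0.454) and differed between the knockout lines (-1.93, edgeR adjusted p = 1.02e-07). Myc, which drives growth and metabolism genes, was lower in Stat5b-/- (-1.94, edgeR adjusted p = 5.29e-08) and in Stat5a-/- (-0.55, edgeR adjusted p = 0.00287), and the knockout lines differed (-1.38, edgeR adjusted p = 2.26e-06). Id1, an inhibitor of helix-loop-helix factors, was lower in both (-1.81 and -0.97, edgeR adjusted p = 1.56e-04 and 0.0102). Socs2 was lower in Stat5b-/- (-0.59, edgeR adjusted p = 6.64e-04) and gave 0.17 in Stat5a-/- (edgeR adjusted p = 0.252). Bcl2l1, the survival gene of BCL-XL, was higher in Stat5b-/- (0.54, edgeR adjusted p = 0.00500) and gave 0.15 in Stat5a-/- (edgeR adjusted p = 0.405). Bcl6, a transcriptional repressor, was lower in Stat5a-/- (-0.77, edgeR adjusted p = 0.00267) and gave 0.24 in Stat5b-/- (edgeR adjusted p = 0.230), with a difference of 1.01 between them (edgeR adjusted p = 4.84e-04).

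Of 6 tested genes for CDK inhibitors, 3 were higher (50%, against 24.2% of all genes) and 2 lower (33.3%, against 22.0%) in Stat5b-/-. In Stat5a-/- 2 were higher (33.3%, against 19.8%) and 1 was lower (16.7%, against 16.3%). Cdkn2a, which encodes p16INK4A and p19ARF, was lower in Stat5b-/- and Stat5a-/- (log2 fold changes of -4.28 and -3.58), with 165 normalized CPM in wt against 8.52 and 13.8 (edgeR adjusted p = 3.68e-11 and 8.50e-11). Cdkn2b, which encodes p15INK4B, was lower in Stat5b-/- (-1.06, edgeR adjusted p = 0.00320) and gave -0.01 in Stat5a-/- (edgeR adjusted p = 0.984). Cdkn2d, which encodes p19INK4D, was higher in both (1.54 and 1.09, edgeR adjusted p = 1.55e-07 and 4.81e-06). Cdkn2c, which encodes p18INK4C, was higher in Stat5b-/- (0.91, edgeR adjusted p = 1.80e-05) with -0.19 in Stat5a-/- (edgeR adjusted p = 0.216), and the knockout lines differed (1.10, edgeR adjusted p = 6.88e-06). Cdkn1a, the gene of p21, was higher in both (0.41 and 0.37, edgeR adjusted p = 0.00946 and 0.0212), and Cdkn1b, the gene of p27, gave 0.32 and -0.22 (edgeR adjusted p = 0.0553 and 0.199).

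Downstream of the cyclin complexes, of 13 RB and E2F genes 5 rose (38.5%, against 24.2% of all genes) and 4 fell (30.8%, against 22.0%) in Stat5b-/-. In Stat5a-/- 3 rose (23.1%, against 19.8%) and 4 fell (30.8%, against 16.3%). Rb1 was higher in both (0.96 and 0.55, edgeR adjusted p = 7.97e-05 and 0.00657), as was E2f2 (1.42 and 1.11, edgeR adjusted p = 1.33e-05 and 1.38e-04). E2f6, a repressive E2F factor, was lower in both (-0.80 and -1.41, edgeR adjusted p = 4.30e-05 and 3.28e-07), and E2f1 gave -0.13 and 0.01 (edgeR adjusted p = 0.608 and 0.9754). Of 30 E2F target genes, 2 rose (6.67%, against 24.2%) and 7 fell (23.3%, against 22.0%) in Stat5b-/-, and 4 rose (13.3%, against 19.8%) and 11 fell (36.7%, against 16.3%) in Stat5a-/-, with medians of -0.09 and -0.16. Tyms, the thymidylate synthase gene, was the only one of the 30 past both limits in a comparison with wt, and it was higher (1.17 in Stat5b-/- and 0.54 in Stat5a-/-, edgeR adjusted p = 3.76e-06 and 0.00280). The cyclin E genes Ccne1 (-0.46, edgeR adjusted p = 0.00252) and Ccne2 (-0.53, edgeR adjusted p = 0.00990) were lower in Stat5a-/- and gave -0.10 and -0.08 in Stat5b-/- (edgeR adjusted p = 0.454 and 0.684). Ccna2, the gene of cyclin A, gave 0.12 in Stat5b-/- and 0.27 in Stat5a-/- (edgeR adjusted p = 0.444 and 0.0859).

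Of the 20 PIM substrate genes, 5 rose (25%) and 7 fell (35%) in each knockout line, against 24.2% and 22.0% of all genes in Stat5b-/- and 19.8% and 16.3% in Stat5a-/-. Irs1, an adaptor of insulin signaling, had 142 to 153 reads in the wt libraries and 0 to 2 in each knockout library. Akt1s1, which encodes the mTORC1 inhibitor PRAS40, was lower in Stat5b-/- (-1.11, edgeR adjusted p = 9.92e-05) and in Stat5a-/- (-0.86, edgeR adjusted p = 9.04e-04). Abcg2, a drug efflux transporter, was higher in Stat5b-/- (0.93, edgeR adjusted p = 0.00484) and lower in Stat5a-/- (-2.59, edgeR adjusted p = 2.38e-05), a difference of 3.52 between the knockout lines (edgeR adjusted p = 1.66e-06).

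Of 14 genes for cyclin D stability and the folding of CDK4, 1 rose (7.14%, against 24.2% of all genes) and 6 fell (42.9%, against 22.0%) in Stat5b-/-, and 2 rose (14.3%, against 19.8%) and 5 fell (35.7%, against 16.3%) in Stat5a-/-. Usp2, a deubiquitinase described for cyclin D1, was lower in both (-1.34 and -0.55, edgeR adjusted p = 6.36e-05 and 0.0261), as was the F-box gene Fbxw8 (-1.09 and -0.65, edgeR adjusted p = 1.82e-04 and 0.00818). The F-box gene Fbxo4 gave 0.30 in Stat5b-/- (edgeR adjusted p = 0.102) and was lower in Stat5a-/- (-0.77, edgeR adjusted p = 0.00132), with a difference of 1.07 between them (edgeR adjusted p = 1.40e-04).

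Among 14 transcription factors described at D-type cyclin genes, Bcl6 included, 1 rose (7.14%, against 24.2%) and 3 fell (21.4%, against 22.0%) in Stat5b-/-, and 2 rose (14.3%, against 19.8%) and 4 fell (28.6%, against 16.3%) in Stat5a-/-. Gfi1, a repressor of early blood cells, was lower in Stat5b-/- (-1.41, edgeR adjusted p = 0.00291) and higher in Stat5a-/- (3.57, edgeR adjusted p = 9.61e-08), and it differed between the knockout lines (-4.98, edgeR adjusted p = 2.64e-08). Ikzf3, the lymphoid factor Aiolos, was higher in both (2.70 and 2.51, edgeR adjusted p = 4.16e-09 and 8.41e-09).

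Of 29 other cyclins and CDKs tested, 9 rose (31%, against 24.2%) and 4 fell (13.8%, against 22.0%) in Stat5b-/-, and 7 rose (24.1%, against 19.8%) and 4 fell (13.8%, against 16.3%) in Stat5a-/-. Ccng1, the gene of cyclin G1, was higher in both (1.19 and 0.93, edgeR adjusted p = 8.42e-06 and 8.86e-05), as was Cdk17 (1.26 and 0.94, edgeR adjusted p = 6.88e-04 and 0.00688). Cdk2, the partner of cyclin E, gave -0.06 and -0.26 (edgeR adjusted p = 0.677 and 0.0659), and Cdk1, the mitotic kinase, gave 0.08 and -0.05 (edgeR adjusted p = 0.674 and 0.823).

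**Figure D5:**
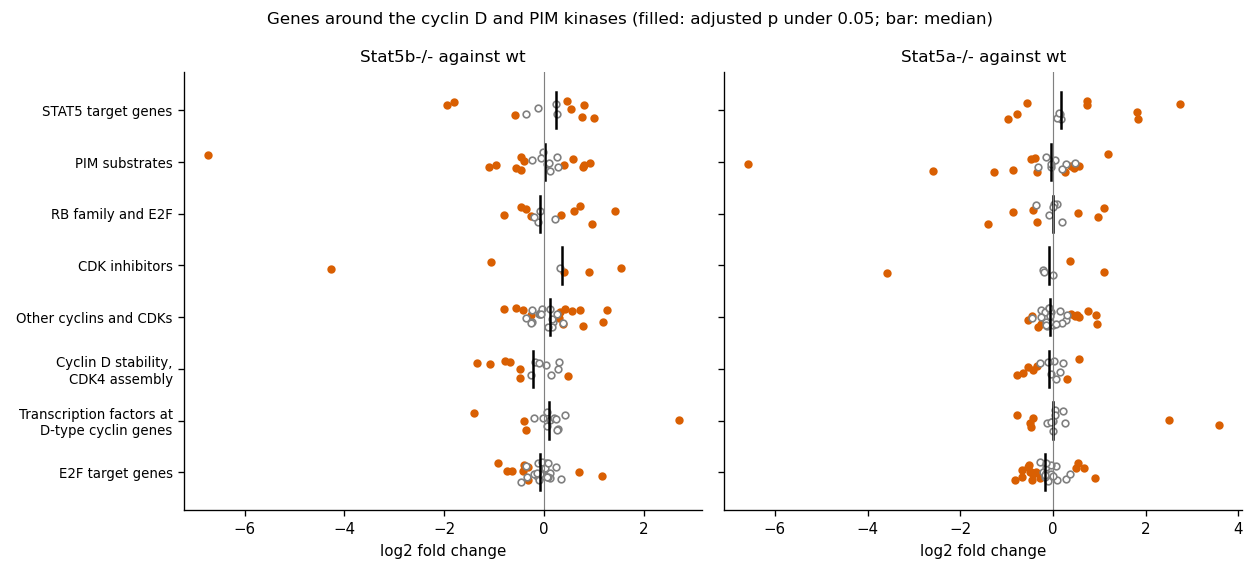
Log2 fold changes of the genes of 8 pathway lists against wt, 1 point for each gene (filled, adjusted p under 0.05; bar, median; x axes differ in range). Each list has genes on both sides of 0 in both knockout lines, and Irs1 (PIM substrates) and Cdkn2a (CDK inhibitors) lie furthest to the left.

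Reads on exons that overlap another gene could not be assigned to a strand, because the counting was run without a strand option. For Ccnd1 this concerns 23.4% of exon bases, for Cdk4 19.7% and for Pim1 17.7%, for Ccnd2, Ccnd3 and Cdk6 between 2.63% and 7.86%, and for Pim2 and Pim3 none.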

How the data were processed

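The 9 libraries were made from polyA RNA with a stranded mRNA kit and sequenced as 50 bp single-end reads. The authors trimmed reads, mapped them with STAR to GRCm38 with GENCODE M13 annotation, counted them with featureCounts 1.5.1 without a strand option, and deposited read counts per gene without normalization. Groups follow titles and genotype labels; the descriptions of the knockout samples read as wt, in conflict with these.

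Counts of 50686 genes were filtered with filterByExpr, scaled by TMM, and fitted in edgeR 4.0.16 (glmQLFit and glmQLFTest) over all 9 libraries, without a block. Positions are those of the count tables, symbols come from GENCODE M21 and promoters from RefSeq (6 of the 8 genes matched). Genes named outside the 8 are a fixed set of regulators, plus the 2 largest changes of each list past both limits without overlap, and the 3 genes most correlated with each of the 8 past both limits. Stat5a and Stat5b were named as a check of the knockouts. The marker genes Rag1, Rag2, Il7r, Lyz2 and Csf1r were named outside this rule. The members and lists were chosen with earlier results of these data known. On simulated counts with 196 changed genes among 13667, 96.4% were recovered with 7 false calls. These values hold for the simulated counts only. The rates of recovery and of false calls in the 9 real libraries, the 8 genes included, were not tested. Alternatives were DESeq2 1.42.0, RLE, no filter, a minimum mean of 10 counts, a fit of the compared lines alone, glmTreat with a log2 limit of 1, each library left out and a replicate block, and, chosen after seeing the data, an offset for GC content. The library carries no molecular identifiers to mark PCR copies, and intervals cover the spread between these libraries only.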

Additional observations from a re-analysis of the deposited data

How the results depend on the processing

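Of the recomputed log2 fold changes of the 8 genes, 370 kept their direction and side of the test, 9 kept the direction and passed newly, 4 kept it and no longer passed, and 1 reversed. The last is Pim2 in Stat5a-/- against wt, which was -0.015 with the GC offset. The number of the 8 genes past both limits in Stat5b-/- against wt was 2, and 1 with the test against a log2 fold change of 1 or with the GC offset (Pim3 -0.96). Leaving out 1 library gave 1 to 2 in Stat5b-/- against wt, 2 to 3 in Stat5a-/- against wt and 1 to 2 in Stat5b-/- against Stat5a-/-. Past the adjusted p alone it gave 6 to 7, 5 to 6 and 5. With the test against a log2 fold change of 1, the genes of the whole table called in Stat5b-/- against wt were 634 higher and 727 lower, against 1471 and 1169. In Stat5a-/- against wt they were 636 and 581 against 1074 and 899, and in Stat5b-/- against Stat5a-/- 261 and 502 against 666 and 914. With the GC offset 8, 6 and 7 of the 8 genes passed the adjusted p in the 3 comparisons, against 7, 5 and 5, with new calls for Pim2 in Stat5b-/- against both other lines, Pim3 in Stat5a-/- against wt (-0.46, adjusted p = 0.00204) and Cdk4 between the knockout lines. Pim3 in Stat5a-/- against wt also passed with no filter on low counts (-0.37, adjusted p = 0.0474). With that offset Pim1 in Stat5a-/- against wt was 1.19 and Ccnd3 0.78, and Ccnd3 between the knockout lines was -0.10. The correlation of a library's deviation with GC content ranged from -0.54 (wt replicate 2) to 0.58 (Stat5a-/- replicate 3), with 0.52 for wt replicate 1. Among tested genes, Pim3 stood at percentile 98.55 of GC content, Ccnd3 at 87.2 and Pim1 at 84.3. The part of GC content in the spread between replicates was not tested.

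Same-numbered libraries did not deviate together (mean correlation -0.11 for the 9 pairs, and 0.055 for the 18 pairs that differ in number), and 1 of 9 libraries correlated best with its own number. With the replicate block, 2, 2 and 1 genes passed both limits and 6, 5 and 5 passed the adjusted p, the lost call being Cdk4 in Stat5b-/- against wt (-0.28, adjusted p = 0.0692). With 1 line for each genotype and 3 technical replicates, differences between lines of the same genotype cannot be told apart from those between genotypes.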
